A study of Homo sapiens with 6 samples.

Results

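The genes described here are 44 genes of the NRF2 pathway, namely NFE2L2 and KEAP1, enzymes listed as NRF2 targets, and the enzymes that make and use glutathione and thioredoxin. They were measured in TE-1, a human cell line from an oesophageal squamous cell carcinoma, with an Affymetrix array. The tested cells were a clone of TE-1 with a stable knockdown of EIF3C, and the control was the parental TE-1 line, with 3 arrays each. Both were grown in RPMI-1640 with foetal bovine serum, per the labels. The knockdown arrays share 1 clone, and the labels describe neither a further clone nor control cells that carry a construct, so effects of cloning and of the knockdown cannot be told apart. The labels call the arrays of a group biological replicates without naming separate cultures, so the p-values reflect the spread among these 6 arrays alone, and that spread may be technical. Members were found by symbol among probe sets annotated with exactly 1 gene, and each gene was read from its brightest probe set over the 6 arrays. Of the 44 genes, 41 had such a probe set, out of 18132 genes in all. TRIM16L was seen only through probe sets shared with TRIM16, and AKR1B1 and PRDX5 are not analysed here. The dimmest 25% of genes were left out of the test, which left 40 members of 13599 genes. AKR1C1 was the member below that filter.

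NRF2, encoded by NFE2L2, is a transcription factor that cells hold at a low level by the adaptor protein KEAP1, which brings it to a ubiquitin ligase. Oxidants and electrophiles modify KEAP1, NRF2 then accumulates, pairs with small MAF proteins and binds antioxidant response elements near genes of detoxification, glutathione and thioredoxin. The glutathione and thioredoxin systems reduce peroxides and oxidised proteins with electrons from NADPH, and the NRF2 pathway is often activated in squamous carcinomas.

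The antioxidant response element has the core letters TGACNNNGC, which were searched on both strands of the promoter windows of RefSeq on GRCh38.p14, from 250 bases before to 50 bases after each start. Windows were given for 36 of the 44 members, 50 windows in all, and 10 of them (20%) held the core, against 13.3% of 35116 windows of all genes. The related letters TGAGNNNGC, whose matches can overlap those of the core on the opposite strand, stood in 16 of the 50 windows (32.0%), against 18.3% of all windows. Of the 9 members with the core, 3 were higher in knockdown, 4 were lower and 2 did not pass the test described below. Over all genes tested, 32.4% were higher and 34.1% lower. Directions here and in the lines below are those of the brightest probe set. GCLM and ME1, both among the 3, also had a dimmer probe set called lower, at -0.25 and -0.20. A match in letters is a description and shows no binding. The stretches below are shown because they carry the match in members that moved in different directions or not at all. They read 5′ to 3′ on the strand of the gene, and the capitals mark the match, which appears as its reverse complement where it lies on the opposite strand.
GCLM, chr1:93909436-93909484, minus strand, higher in knockdown: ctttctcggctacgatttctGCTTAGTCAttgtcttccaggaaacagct
KEAP1, chr19:10502774-10502822, minus strand, lower in knockdown: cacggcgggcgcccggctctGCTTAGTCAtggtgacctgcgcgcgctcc
ME1, chr6:83431160-83431208, minus strand, higher in knockdown: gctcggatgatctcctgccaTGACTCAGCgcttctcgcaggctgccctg
GSTP1, chr11:67583726-67583774, plus strand, lower in knockdown: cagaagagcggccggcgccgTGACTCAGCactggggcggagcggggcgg
PIR, chrX:15493289-15493317, minus strand, higher in knockdown: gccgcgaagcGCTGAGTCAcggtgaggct
TXNRD1, chr12:104215660-104215708, plus strand, did not pass: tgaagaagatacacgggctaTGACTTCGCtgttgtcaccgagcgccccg
OSGIN1, chr16:83953121-83953169, plus strand, TGAGNNNGC match, higher in knockdown: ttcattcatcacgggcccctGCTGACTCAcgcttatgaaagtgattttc
GCLM and KEAP1 share the same 9 letters, and the 9 letters of ME1 and GSTP1 are the same.

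Values are log2 signals, and a difference is knockdown minus control on that scale. Array medians lay between 6.09 and 6.11. Pairs of arrays of the same group correlated at 0.9977 to 0.9985, and pairs from different groups at 0.9824 to 0.9846. The targeted gene EIF3C, measured together with its near-identical copy EIF3CL, stood at 8.42, 8.41 and 8.49 in knockdown, against 10.69, 10.60 and 10.56 in control on the brightest of 5 shared probe sets, which is 22.1% of the control level (limma, adjusted p = 6.58e-15). The dim probe sets among them were lower by -0.58 and -0.97. Of 14 epithelial markers 11 could be read, and their summed linear signal was 34207 to 34647 in knockdown and 31027 to 32150 in control. KRT8 (0.26), CDH1 (0.23), EPCAM (0.21) and KRT18 (0.12) were called higher, DSG3 (-0.70), PERP (-0.47) and DSP (-0.40) lower, and SFN, KRT5, KRT14 and PKP1 did not pass. The simple-epithelial keratin KRT18 was bright, at 13.64 in knockdown and 13.52 in control. The basal squamous keratins KRT5, at 6.09 and 5.91, and KRT14, at 5.67 and 5.85, were below the median of all tested genes, 7.61. PKP1, at 5.12 in knockdown and 5.19 in control, was also below it. Of the 11 markers read, 8 had a mean above that median, with SFN and PERP among them. DSP, at 10.46 in knockdown and 10.86 in control, and DSG3, at 7.45 and 8.14, were also among these 8. Summed linear signals of 8 leukocyte markers were 248 to 262 in knockdown and 257 to 307 in control, with PTPRC at 2.85 and 2.87, and those of 6 endothelial markers were 251 to 254 and 234 to 251. For 8 fibroblast markers the sums were 255 to 280 in knockdown and 599 to 623 in control, with COL1A2 at 6.22 in knockdown and 8.74 in control. COL3A1, DCN, LUM, THY1 and FAP lay below the filter, and FAP was at 4.72 in knockdown and 3.88 in control. The part of these markers in the results below was not tested.

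The NRF2 pathway genes moved in both directions in knockdown cells. None of the 40 members tested changed by as much as 2-fold, which few genes did (4.82% of all tested). GLRX2, PIR, SRXN1 and OSGIN1 had the largest rises, of 1.63- to 1.82-fold. The largest falls, to 55.5% to 63.0% of control, were those of GSTK1, AKR1C2 and AKR1C3. AKR1C2 and AKR1C3 were dim and their other probe sets did not pass, whereas every probe set of GSTK1 was called lower. AKR1C2 passed the filter only through its control arrays. In the listed thioredoxin and glutaredoxin group 4 of 6 were called higher, of which TXN rose by only 0.09. All 5 enzymes tested that reduce quinones, carbonyls or biliverdin, and 6 of 7 glutathione transferases, were called lower. These groups are small, and of 16 further enzymes of the thioredoxin system and of oxidant defence 7 were higher and 7 lower. Of 40 members tested, 14 were higher and 21 lower in knockdown (limma with an intensity trend, Benjamini-Hochberg over all genes tested, adjusted p under 0.05) and 5 did not pass. Over all genes tested, 66.5% were called, 32.4% higher and 34.1% lower. These shares also apply to the counts within each group of enzymes below, which rest on few genes. The members are bright as a set, and bright genes were called more often. Among the 27 members with a mean of at least 9, 24 passed, against 84.6% of all such genes, and the arrays of 25 did not overlap, against 85.9%. A call with a difference of at least 0.5 was seen in 7 of the 40, where 21.8% of all genes had one. A difference of 1 was reached by 0 of the 40, where 4.82% of all genes reached it. With 40 members both counts are near the shares of all genes. The median difference was -0.07 over the members and -0.03 over all genes. The median size of the difference without its sign was 0.23 for both.

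The arrays of the groups did not overlap for 35 of the 40 members, 15 of them with knockdown above and 20 with knockdown below, against 70.3% of all genes without overlap. Within a group the SD over 3 arrays had a median of 0.029 over the members and ranged from 0.0064 to 0.17. Small differences could therefore pass the test. As a yardstick, 85 non-human control probe sets, which should not respond to the cells, differed between groups by -0.22 to 0.20. Of the 35 members called, 14 had a difference no larger than 0.22, and 8 higher and 13 lower members went beyond it. Over all genes tested, 50.7% were called with a difference beyond it, so the 21 of 40 members are near the share of all genes.

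**Figure D1:**
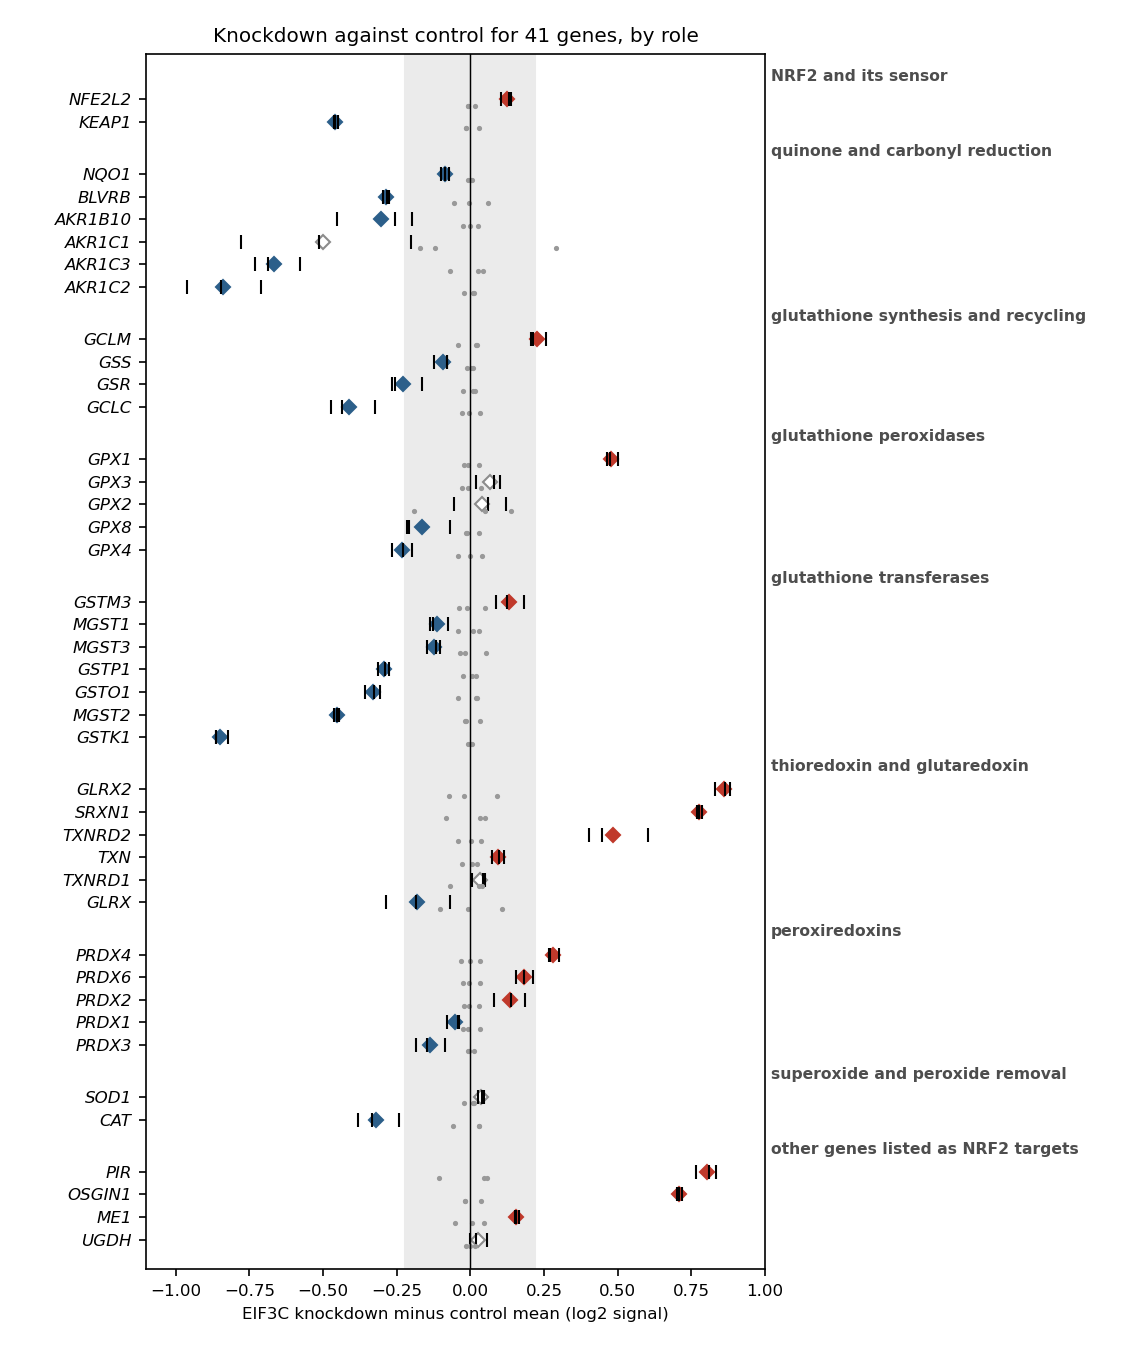
Differences of 41 genes between EIF3C knockdown and the control mean, in log2 signal, grouped by role. Diamonds are group differences, red where higher in knockdown, blue where lower and open where not past the threshold or, for AKR1C1, not tested. Black ticks are the 3 knockdown arrays and grey dots the 3 control arrays. The grey band spans 0.22 on either side of 0, the widest gap seen among non-human control probe sets. GLRX2, PIR, SRXN1 and OSGIN1 lie farthest to the right and GSTK1 and AKR1C2 farthest to the left.

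The transcription factor gene NFE2L2 was slightly higher and its inhibitor KEAP1 lower in knockdown. NFE2L2 stood at 10.37, 10.38 and 10.34 in knockdown, against 10.23, 10.26 and 10.23 in control. The groups did not overlap, and the difference was 0.12 (SE 0.026, adjusted p = 0.000433 by limma). It lay within the band of the non-human control probe sets, and the dimmer NFE2L2 probe set did not pass, at 9.53 in knockdown and 9.52 in control. KEAP1 stood at 8.17, 8.18 and 8.17 in knockdown, against 8.66, 8.62 and 8.62 in control, on its single probe set. Every knockdown array was below every control array, and the level was 72.8% of control (difference -0.46, SE 0.039, adjusted p = 1.47e-08).

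**Figure D2:**
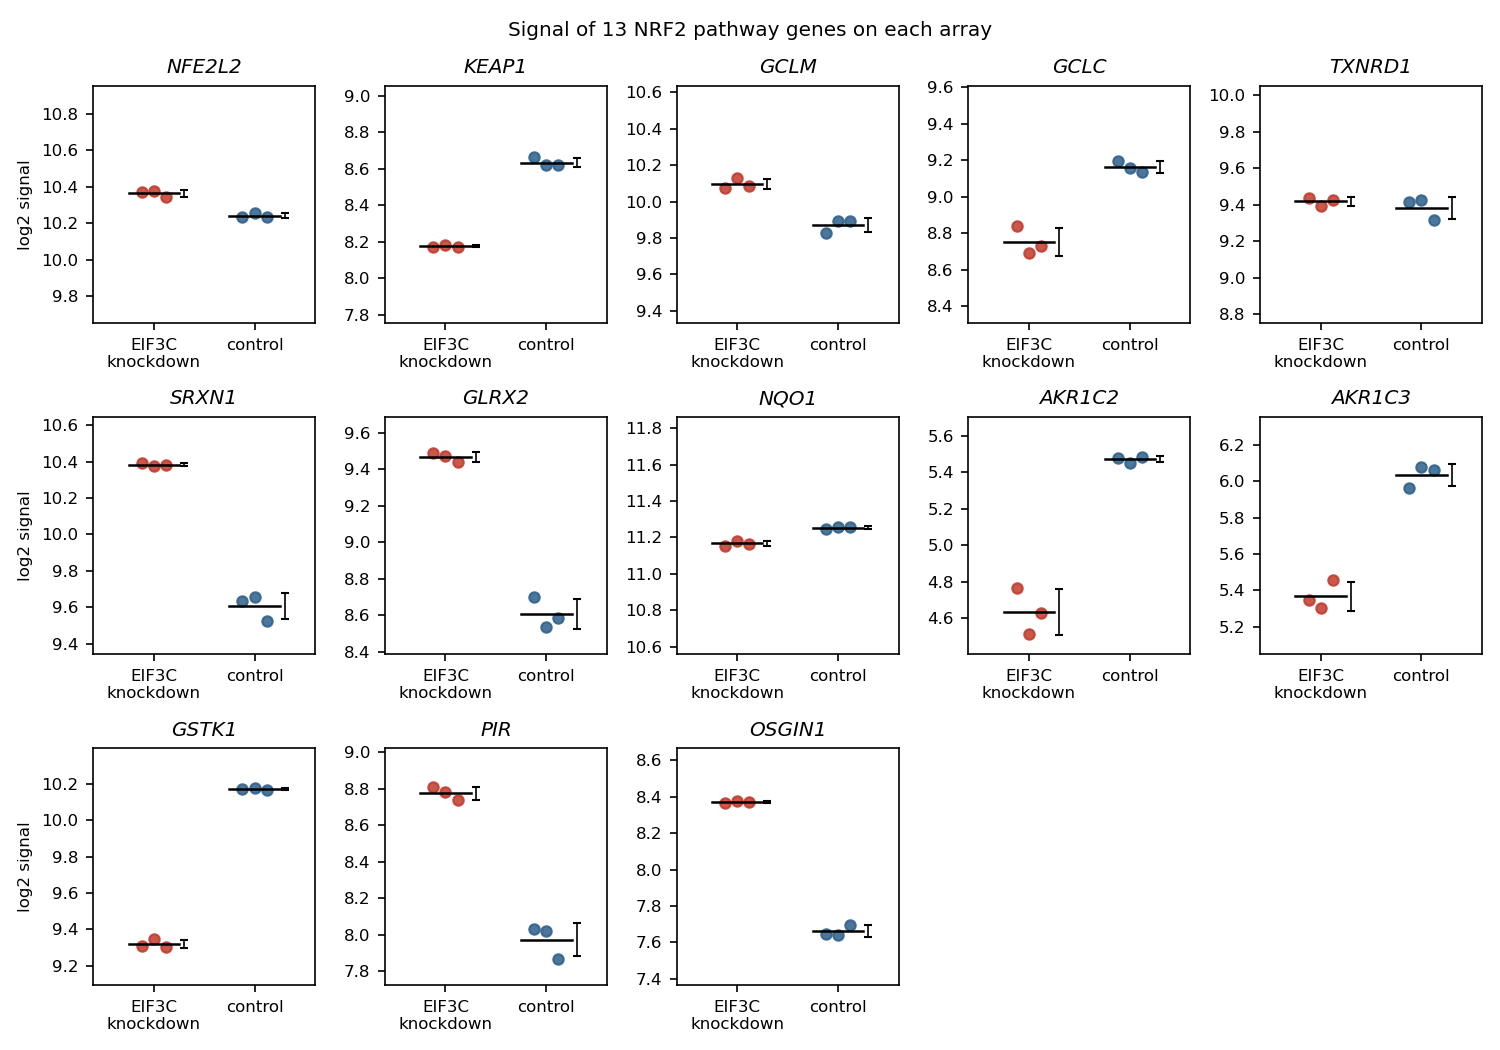
Log2 signal of 13 genes on each array, with EIF3C knockdown on the left in red and control on the right in blue. Points are arrays, black lines are means and brackets show the SD of 3 arrays. All panels span the same height of 1.3 on the log2 scale, which does not start at 0. TXNRD1 overlaps between the groups, and the other 12 genes do not.

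In glutathione synthesis the subunits of the rate-limiting enzyme, glutamate-cysteine ligase, went opposite ways. GCLM, the modifier subunit, stood at 10.08, 10.13 and 10.09 in knockdown, against 9.83, 9.90 and 9.89 in control, a difference of 0.22 (SE 0.030, adjusted p = 3.97e-06 by limma). The catalytic subunit GCLC stood at 8.84, 8.69 and 8.73 in knockdown, against 9.20, 9.16 and 9.14 in control, a difference of -0.41 (SE 0.041, adjusted p = 1.21e-07). In both genes the groups were apart on the brightest probe set. The other probe sets complicate these values. That of GCLM, dimmer at 6.44 in knockdown and 6.70 in control, was called lower, at -0.25, and with the mean of both the difference of GCLM was -0.01. GCLC had 4 probe sets, of which 2 were called lower, at -0.41 and -0.55, and the others stood at -0.03. Glutathione reductase, GSR, which regenerates reduced glutathione from the oxidised form, was lower on arrays from 9.38 to 9.48 in knockdown, against 9.62 to 9.66 in control (difference -0.23, adjusted p = 1.58e-05). GSS, the synthetase of the last step, differed by -0.09 (adjusted p = 0.0171), and this call was lost without EIF3C knockdown replicate 3 (adjusted p = 0.0798) and with the mean of its probe sets (0.0872).

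Among the glutathione peroxidases, which reduce hydrogen peroxide or lipid peroxides, 1 of 5 was higher, 2 were lower and 2 did not pass. GPX1, the abundant cytosolic form, stood at 11.60, 11.57 and 11.56 in knockdown, against 11.13, 11.08 and 11.09 in control. All 3 knockdown arrays were above the control, by 1.39-fold (difference 0.48, adjusted p = 7.23e-12), and the further probe set of GPX1 rose by 0.52. GPX4, which reduces lipid peroxides in membranes and restrains ferroptosis, moved the other way, with 11.15, 11.21 and 11.18 in knockdown, against 11.41, 11.45 and 11.37 in control (difference -0.23, adjusted p = 4.59e-07). Its further probe set was also lower, at -0.21. GPX8, a peroxidase of the endoplasmic reticulum, was lower by -0.16 (adjusted p = 0.00618) and by -0.56 on a further probe set. The secreted GPX3 stood at 9.33 to 9.41 in knockdown and 9.28 to 9.35 in control, and these ranges overlap (adjusted p = 0.103). A further probe set of GPX3 was called higher, at 0.15, and without control replicate 3 the gene passed (adjusted p = 0.0397). GPX2, the gastrointestinal form, was dim, at 5.03 to 5.20 in knockdown and 4.89 to 5.22 in control, with a difference of 0.04 that turned to -0.05 without control replicate 2 (adjusted p = 0.733 with all arrays).

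Of the glutathione transferases, which join glutathione to electrophiles, 6 of 7 were lower and 1 was higher. Over all genes tested, 34.1% were lower and 32.4% higher. GSTK1, the kappa-class enzyme of mitochondria and peroxisomes, had the largest fall among the members. It stood at 9.31, 9.35 and 9.31 in knockdown, against 10.17, 10.17 and 10.16 in control. The groups were far apart relative to their SDs of 0.024 and 0.0065, and the level was 55.5% of control (difference -0.85, SE 0.029, adjusted p = 1.41e-13 by limma). Its 3 probe sets were all called lower, at -0.85, -0.38 and -0.58, the last 2 of them dim. MGST2, a membrane-bound member that can also make leukotriene C4, stood at 8.87, 8.88 and 8.86 in knockdown, against 9.31, 9.36 and 9.31 in control (difference -0.45, adjusted p = 2.44e-09). GSTO1, the omega-class enzyme, differed by -0.33 and GSTP1, the pi-class enzyme widely raised in tumours, by -0.29. GSTP1 stood at 12.02, 12.01 and 11.99 in knockdown, against 12.32, 12.31 and 12.28 in control, with the same direction on its further, dimmer probe set (-0.29). The microsomal MGST1 (-0.11) and MGST3 (-0.12) were lower by amounts within the band of the control probe sets. Without probe sets ending in _x_at or _s_at, which the array design marks as able to bind several transcripts, MGST1 did not pass (-0.04, adjusted p = 0.139). GSTM3, the mu-class enzyme, was higher on its brightest probe set by 0.13 (adjusted p = 0.00197). A dimmer probe set of GSTM3, at 4.88 in knockdown and 5.34 in control, was called lower, and the mean of its 3 probe sets was lower by -0.11, so its direction rests on the choice of probe set.

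In the thioredoxin and glutaredoxin group 4 of 6 rose, 1 fell and 1 did not pass, where 32.4% of all genes tested were higher. GLRX2, the mitochondrial and nuclear glutaredoxin, had the largest rise among the members, with 9.49, 9.47 and 9.44 in knockdown, against 8.70, 8.54 and 8.59 in control. The groups were separated by far more than their spread (1.82-fold, difference 0.86, SE 0.041, adjusted p = 9.78e-12 by limma). SRXN1, sulfiredoxin, which restores overoxidised peroxiredoxins, stood at 10.39, 10.37 and 10.38 in knockdown, against 9.64, 9.66 and 9.52 in control. Knockdown arrays were nearly identical to each other and all higher, by 1.71-fold (difference 0.78, SE 0.034, adjusted p = 2.94e-12). Both genes have a single probe set. TXNRD2, the mitochondrial thioredoxin reductase, stood at 9.28, 9.13 and 9.08 in knockdown, against 8.72, 8.68 and 8.64 in control (difference 0.48, adjusted p = 7.71e-08). Its 4 bright probe sets were called higher by 0.48 to 0.54, and a dim one stood at 0.07.

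TXNRD1, the cytosolic thioredoxin reductase and a standard NRF2 target, did not pass the test. It stood at 9.44, 9.39 and 9.43 in knockdown, against 9.42, 9.42 and 9.32 in control, and the groups overlap (difference 0.03, SE 0.036, adjusted p = 0.426 by limma). The difference of TXNRD1 turned to -0.02 with quantile normalization, and its other 2 probe sets stood at -0.00 and -0.05. TXN, thioredoxin itself, was higher by 0.09 on its brightest probe set and by 0.18 to 0.24 on 4 others, which were all called (adjusted p = 0.000165 for the brightest). GLRX, the cytosolic glutaredoxin, stood at 6.27 to 6.49 in knockdown and 6.46 to 6.66 in control, and although these ranges overlap it was called lower (-0.18, adjusted p = 0.0426). Leaving out EIF3C knockdown replicate 2 (adjusted p = 0.191), EIF3C knockdown replicate 3 (0.0904), control replicate 1 (0.0752) or control replicate 2 (0.188) ended the call of GLRX.

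Peroxiredoxins, the thiol peroxidases that thioredoxin reduces, moved little, with 3 of 5 higher and 2 lower. PRDX4, the form of the endoplasmic reticulum, had the largest difference, with 10.46, 10.49 and 10.45 in knockdown, against 10.18, 10.22 and 10.15 in control (difference 0.28, adjusted p = 9.36e-08 by limma). It was the only member of this family beyond the band of the control probe sets on its brightest probe set. The cytosolic PRDX2 was higher by 0.13, and all 5 of its probe sets were called higher, at 0.13 to 0.22. The mitochondrial PRDX3 was lower on both probe sets, at -0.14 and -0.16. PRDX1, the most studied NRF2 target of the family, differed by -0.05 (adjusted p = 0.0258) and did not pass without EIF3C knockdown replicate 3 (adjusted p = 0.133) or control replicate 3 (0.122). The call of PRDX1 was also lost with median centring (0.0670), without the intensity trend (0.226) and with array weights (0.0513). PRDX6, the 1-cysteine form that also has phospholipase activity, gave contradictory probe sets. Its brighter probe sets, at 12.31 and 12.18 in knockdown and 12.13 and 12.08 in control, were called higher by 0.18 and 0.10. The other probe sets of PRDX6, at 10.27 and 10.10 in knockdown and 10.66 and 10.48 in control, were called lower by -0.38 each, and the mean of all 4 was lower by -0.12 (adjusted p = 0.000235).

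Of the enzymes that remove superoxide and hydrogen peroxide without thiols, catalase was lower. CAT stood at 7.98, 8.07 and 7.93 in knockdown, against 8.25, 8.34 and 8.34 in control. The groups were apart (difference -0.32, adjusted p = 1.43e-05 by limma), and its further probe set was lower by -0.37. SOD1, the cytosolic copper-zinc superoxide dismutase, differed by 0.04 on its brightest probe set and did not pass (adjusted p = 0.0798), although its arrays did not overlap, at 12.48 to 12.50 in knockdown and 12.43 to 12.46 in control. A further probe set of SOD1 was called lower, at -0.27, and the mean of its 3 probe sets was lower by -0.08 (adjusted p = 0.000515).

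The enzymes that reduce quinones, carbonyls and biliverdin were lower on their brightest probe sets in all 5 cases tested, where 34.1% of all genes were lower. NQO1, the NADPH quinone reductase that is most often used as a readout of NRF2, stood at 11.15, 11.18 and 11.17 in knockdown, against 11.25, 11.26 and 11.26 in control. The groups were apart by a small amount (difference -0.09, SE 0.022, adjusted p = 0.00188 by limma), which was within the band of the control probe sets, and the further probe set of NQO1 was lower by -0.35. BLVRB, biliverdin reductase B, was lower by -0.29 (adjusted p = 4.18e-07). The aldo-keto reductases, among the most responsive NRF2 targets in human cells, were dim. AKR1C3, which reduces prostaglandins and steroids, stood at 5.35, 5.30 and 5.46 in knockdown, against 5.96, 6.08 and 6.06 in control (difference -0.67, SE 0.077, adjusted p = 7.35e-07). AKR1C2, a close relative, stood at 4.76, 4.51 and 4.63 in knockdown, against 5.48, 5.45 and 5.49 in control (difference -0.84, SE 0.089, adjusted p = 2.63e-07). All knockdown arrays of both genes were below all control arrays. The knockdown mean of AKR1C2, 4.633, lay just below the lowest mean kept by the filter, 4.635. AKR1C2 was thus tested only because its control mean, 5.47, was higher. Its call and the size of its fall are therefore uncertain. The other 2 probe sets of AKR1C2 and the other 1 of AKR1C3 did not pass. AKR1B10 was lower by -0.30 (adjusted p = 0.00376), with a further probe set at -0.16 that did not pass. Similarly dim probe sets shared with AKR1B15 went the other way, at 0.32 (called higher) and 0.23 (did not pass). The direction of AKR1B10 thus rests on the choice of probe set. AKR1C1, below the filter, stood at 2.97 to 3.54 in knockdown and 3.57 to 4.04 in control. It was not tested among genes, and in the fit over all human probe sets both of its probe sets were called lower, at -0.50 (adjusted p = 0.00801) and -0.31 (0.00749). The AKR1C genes are related in sequence, and AKR1C1 and AKR1C2 are near-identical, so their probe sets may share transcripts.

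Among further genes listed as NRF2 targets 3 of 4 were higher, where 32.4% of all genes tested were. PIR, or pirin, an iron-binding nuclear protein that acts as a redox sensor for NF-kB, stood at 8.81, 8.78 and 8.74 in knockdown, against 8.03, 8.02 and 7.87 in control (1.74-fold, difference 0.80, SE 0.048, adjusted p = 1.46e-10 by limma). OSGIN1, an oxidative stress-induced growth inhibitor, stood at 8.37, 8.38 and 8.37 in knockdown, against 7.64, 7.64 and 7.70 in control (1.63-fold, difference 0.71, SE 0.043, adjusted p = 1.83e-10). Neither gene overlaps between the groups, and both probe sets of OSGIN1 rose. ME1, cytosolic malic enzyme, which makes NADPH, was higher by 0.16 on its brightest probe set and lower by -0.20 on the other, with a mean of -0.02. UGDH, which makes the UDP-glucuronate used in conjugation, stood at 0.02 and did not pass (adjusted p = 0.616), and a further probe set was called higher, at 0.20. The difference of UGDH turned to -0.00 with quantile normalization. TRIM16L could be read only together with TRIM16, and both shared probe sets were called higher. The brighter stood at 10.97, 10.98 and 10.95 in knockdown, against 10.30, 10.38 and 10.31 in control (difference 0.64, adjusted p = 7e-11 in a fit over all human probe sets), so which of these genes rose cannot be told apart.

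**Figure D3:**
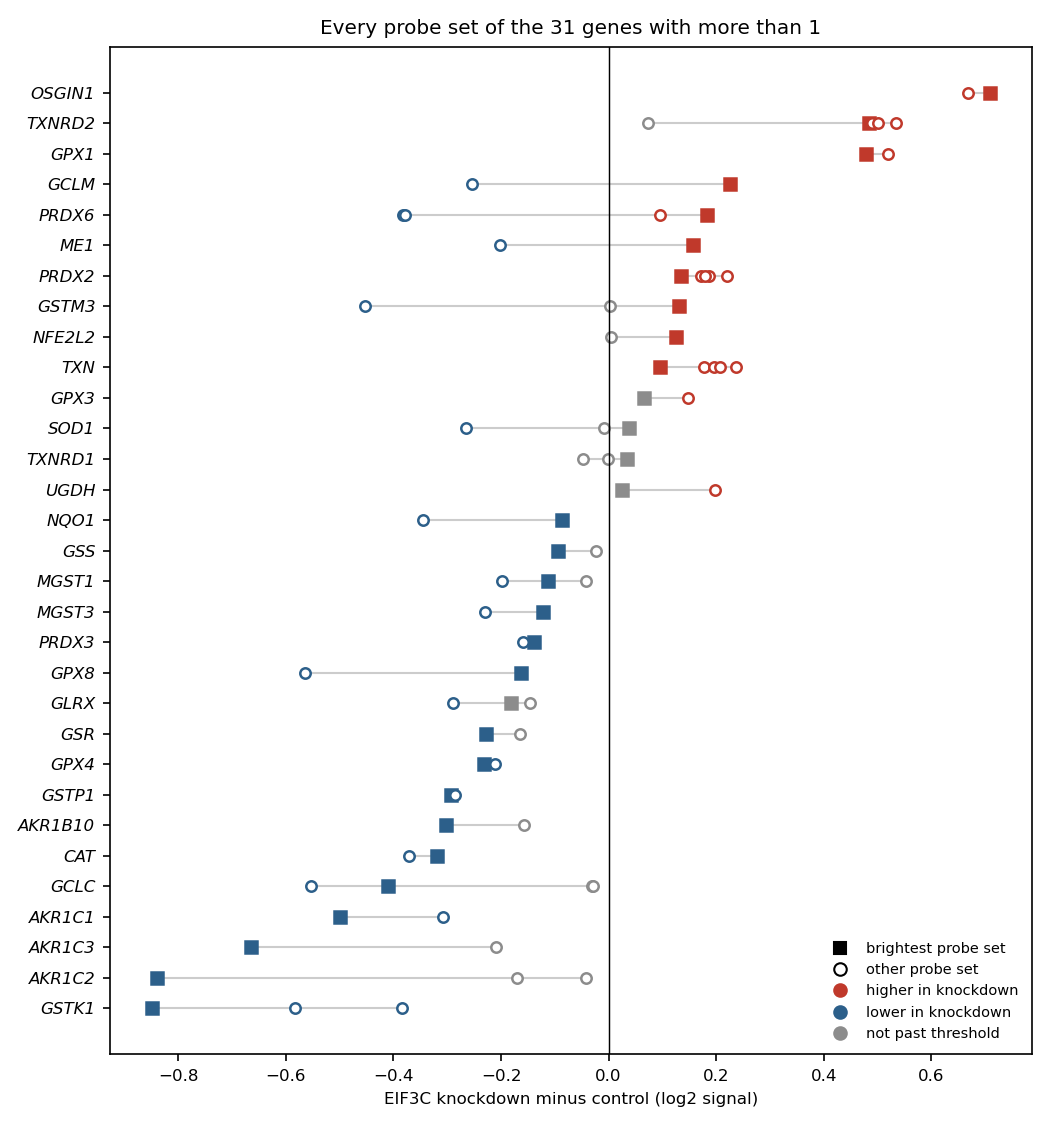
Difference between EIF3C knockdown and control, in log2 signal, for every probe set of the 31 members with more than 1. Squares are the brightest probe set of a gene and open circles the others. Colours give the call in a fit over all human probe sets, red higher, blue lower and grey not past the threshold. GCLM, PRDX6, ME1 and GSTM3 have probe sets called in both directions, whereas those of TXN, PRDX2, GPX1 and GSTK1 lie on 1 side.

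Probe sets of a gene gave a check within the same arrays. In a fit over all human probe sets, where 48.2% were called, 13 of the 31 members with more than 1 probe set had all of them called in 1 direction. Of the 26 called members with more than 1, 16 had a further probe set called the same way and none opposite, 4 had one called the opposite way (GCLM, GSTM3, PRDX6 and ME1) and 6 had no further one called (NFE2L2, AKR1B10, AKR1C2, AKR1C3, GSS and GSR). Which exons the probe sets read was not analysed here.

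**Figure D4:**
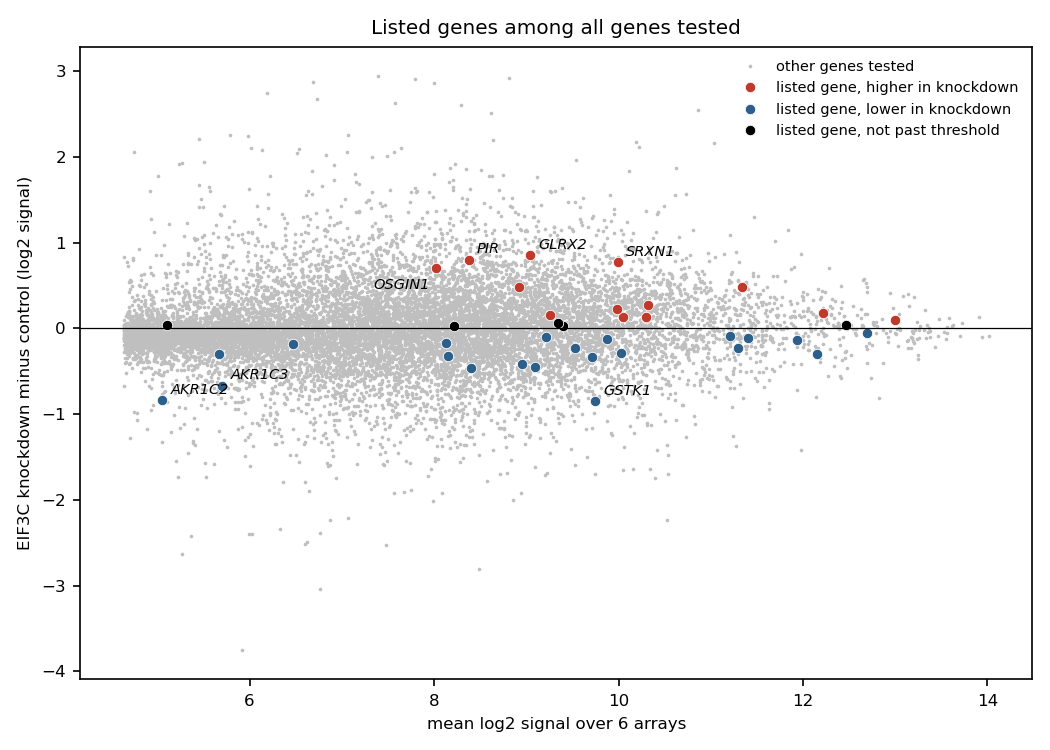
Difference between EIF3C knockdown and control against the mean log2 signal over 6 arrays for 13599 genes tested. Grey points are other genes, and the 40 listed genes are red where higher in knockdown, blue where lower and black where not past the threshold. The listed genes stay between -0.85 and 0.86, inside the cloud of all genes, and most lie at signals above 8.

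Other genes of the pathway, none of them among the 44, were also called in both directions. Of 60 tested, 22 were higher and 27 lower. Over all genes tested, 32.4% were higher and 34.1% lower, and bright genes were called more often. The same shares apply to the counts of each list that follows. Among 8 regulators of NRF2 4 were higher and 4 lower. MAFF, a small MAF partner of NRF2, averaged 7.54 ± 0.032 in knockdown and 6.66 ± 0.091 in control (SD, n = 3 each; 1.84-fold, adjusted p = 7.78e-10 by limma). NFE2L1, the related factor NRF1 that controls proteasome genes, was at 9.16 ± 0.026 in knockdown and 9.70 ± 0.039 in control. The kinase GSK3B (-0.69) and the ubiquitin ligase adaptor BTRC (-0.45), which mark NRF2 for degradation without KEAP1, were lower on their brightest probe sets. With the mean of all probe sets the difference of GSK3B was 0.08 and that of BTRC 0.27, so neither direction is stable to the choice of probe set.

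Of 19 further NRF2 targets 6 were higher and 8 lower. CYP4F11, a fatty acid hydroxylase, was dim in control and 2.66-fold higher (6.16 ± 0.055 in knockdown and 4.74 ± 0.16 in control, adjusted p = 3.42e-10 by limma). ABCC3, a transporter of glucuronide and glutathione conjugates, was 2.06-fold higher. HMOX1, haem oxygenase, was lower by -0.98, and IDH1, the cytosolic isocitrate dehydrogenase that makes NADPH, by -1.48, with 7.75 ± 0.069 in knockdown and 9.22 ± 0.031 in control (adjusted p = 2.3e-14). These further NRF2 targets held larger differences in both directions than any member.

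Of 17 further glutathione enzymes 5 were higher and 8 lower. CHAC1, a gamma-glutamyl cyclotransferase that breaks down glutathione, was lower by -0.86 (adjusted p = 3.37e-08 by limma), with an SD over 3 arrays of 0.21 in knockdown and 0.037 in control. GGCT, another gamma-glutamyl cyclotransferase, was higher by 0.60. The iron-sulphur glutaredoxins went opposite ways, with GLRX3, the cytosolic form, at 0.54 and GLRX5, the mitochondrial form, at -0.59. Of 16 further enzymes of the thioredoxin system and of oxidant defence 7 were higher and 7 lower, and the 4 named by rule fell. SESN2, a stress-induced sestrin, was 2.60-fold lower, with 7.56 ± 0.043 in knockdown and 8.94 ± 0.051 in control (adjusted p = 5.94e-14). TXNIP, which binds and inhibits thioredoxin, was lower by -0.94, and the mitochondrial thioredoxin TXN2 by -0.68. NNT, the inner-membrane enzyme that supplies mitochondrial NADPH, was lower by -0.95. In bulk RNA, fewer cells with a transcript and less transcript per cell cannot be told apart.

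**Figure D5:**
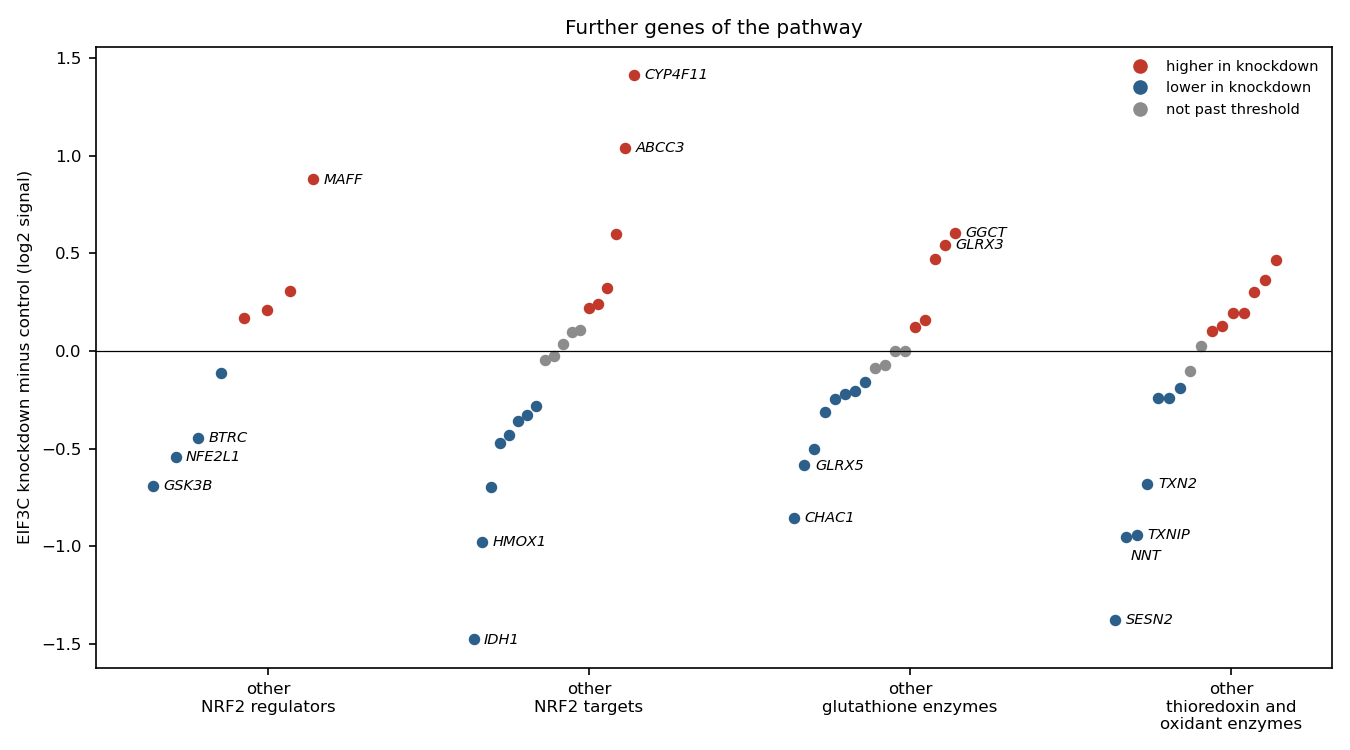
Differences between EIF3C knockdown and control, in log2 signal, for the 60 further pathway genes tested, in 4 lists and sorted within each. Red points were higher in knockdown, blue lower and grey not past the threshold, and the 4 called genes with the largest difference in each list are named. CYP4F11 and ABCC3 lie at the top, and IDH1 and SESN2 at the bottom.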

How the data were processed

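The deposited table holds log2 signals per probe set, 1 column for each of 6 arrays and 49395 probe sets, made by the authors with MAS5, per the submitters' processing notes. How background, summarisation, scaling and the log step were handled is not given in the sources used here, and log2 was taken from the range of the values, 1.95 to 14.1. Array medians were nearly equal, so no further normalization was applied, and a change shared by all genes cannot be measured. No detection calls were used, and precision is limited by the number of arrays. Gene names came from the platform annotation, in which 44988 probe sets carry 1 symbol.

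The groups were compared with limma 3.58.1 (R 4.3.3; lmFit, then eBayes with the trend option, no term but group, two-sided), with Benjamini-Hochberg adjustment over the 13599 genes left after the dimmest 25% were removed. Adjusted p-values of genes are from that model, and those of single probe sets are from a fit over all 49293 human probe sets. The test was also run on simulated data with independent noise and a change in few genes. In these data 66.5% of genes were called, so that run does not measure the share of false calls here. Alternatives were other filters, normalizations, probe set rules, variance settings, a replicate block and each array left out. The members and lists were chosen with earlier results of these data known. All members could be named. Values on every array were given for members with a call and a difference of at least 0.5 and for NFE2L2, KEAP1, NQO1, GCLM, GCLC, TXNRD1 and SRXN1, and some others were added after their values were seen. Of each other list, the up to 4 called genes with the largest difference were named.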

Additional observations from a re-analysis of the deposited data

Results flagged for a closer look

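Probe sets shared by several genes stood outside the comparison, and 3 of the 7 that hold a member were called higher in knockdown. Over all human probe sets 48.2% were called in either direction, so this count is no result about the members. Another of the 7, shared by AKR1C1 and AKR1C2, was called lower, at -1.46, a larger difference than any of the 3. It is described under other observations. Both probe sets shared by TRIM16 and TRIM16L were higher, by 0.64 and 0.69 on the log2 scale (limma over all human probe sets, adjusted p = 7e-11 and 1.67e-10). A probe set shared by AKR1B10 and AKR1B15 was dim, at 5.67 ± 0.11 in knockdown and 5.35 ± 0.12 in control (SD, n = 3 each), and was higher by 0.32 (adjusted p = 0.00798). The other probe set of this pair stood at 0.23 and did not pass (adjusted p = 0.0567). AKR1B10 alone had 2 probe sets, of which the brighter was called lower, at -0.30, and the other stood at -0.16 and did not pass.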

How the results depend on the processing

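Over all alternatives, 11 to 15 members were higher and 17 to 22 lower, of 35 to 41 tested, and 7284 to 9352 genes were called. These counts were within 1.5 times those reported, but the number of genes tested changed too, from 9066 to 18132. The share of genes called ranged from 51.6% without a filter to 80.3% with a filter at 50%. With each array left out in turn, 14 to 15 members were higher, 18 to 21 lower and 8457 to 8881 genes called. There 40 members and 13599 genes were tested each time. Of the 35 called members 26 kept their direction and call under every alternative that could test them. Among these 26, SRXN1, GPX1 and TXN had only probe sets ending in _x_at or _s_at. The alternative without such probe sets could not test them. Averaging all probe sets of a gene turned GCLM to -0.015, GSTM3 to -0.11, PRDX6 to -0.12, ME1 to -0.023, SOD1 to -0.079, TXNRD1 to -0.0057, BTRC to 0.27 and GSK3B to 0.076. Quantile normalization turned TXNRD1 to -0.024 and UGDH to -0.0048. Without probe sets ending in _x_at or _s_at, an alternative chosen after seeing the data, TXNRD1 was -0.0020 and BTRC 0.41, and NFE2L2 did not pass (adjusted p = 0.929). With each array left out, GPX2 ranged from -0.054 (without control replicate 2) to 0.11 and TXNRD1 from -0.0012 (without control replicate 3) to 0.053. The cause was not tested. Same-numbered arrays deviated together weakly (r = 0.08, 0.10 and 0.17), though more than differently numbered ones (r = -0.13 to 0.05). The numbers were not taken as pairs in the main test. With the replicate block 14 members were higher, 21 lower and 9307 genes called, against 9037 without it. The brightest EIF3C probe set stayed between -2.22 and -2.15 under the alternatives that were run on it. Dim probe sets limit what can be said of AKR1C1, AKR1C2, AKR1C3, AKR1B10 and GPX2.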

Other observations

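AKR1C1 and AKR1C2 encode near-identical hydroxysteroid dehydrogenases, and 3 further probe sets are assigned to both. On the brightest of them in control, the log2 signal was 3.33, 3.32 and 3.02 in knockdown, against 4.58, 4.85 and 4.61 in control. All knockdown arrays were lower, with a difference of -1.46 (SE 0.11, limma over all human probe sets, adjusted p = 1.7e-08), although both groups were dim. The other shared probe sets stood at 0.05 and 0.09 and did not pass. The promoter windows of these genes are also alike, with 250 of 280 aligned bases identical (89.3%). The stretch that holds the letters TGAGNNNGC is the same in both: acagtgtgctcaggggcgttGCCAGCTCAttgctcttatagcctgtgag, at chr10:4963354-4963402 for AKR1C1 on the plus strand and at chr10:5003874-5003922 for AKR1C2 on the minus strand of GRCh38.p14.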
